A study of Mus musculus with 6 samples.

Results

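The cell cycle and proliferation genes described here were 35 genes of cyclins, DNA replication and mitosis, chosen by a list of symbols and with no cutoff on their values, although other results of these data were known when the list was drawn up. All 35 were found by symbol among the 23366 genes of the deposited table. They were compared between the brain cortex of 3 d10 microglia-depleted mice, named A4, A5 and A6, and that of 3 littermate control mice (A1 to A3), each with a single RNA library. In the depleted group the mice carried CX3CR1-CreERT2 and iDTR, the diphtheria toxin receptor behind a stop that Cre removes. They received tamoxifen, which activates the Cre, and later diphtheria toxin, and tissue was taken at d10 after the depletion. Their littermate controls had CX3CR1-CreERT2 but no iDTR and also received tamoxifen, and the methods do not state whether they received diphtheria toxin. The strain background was C57BL/6 in all 6 mice, and the labels give no age for single mice. The Cx3cr1 promoter drives Cre in microglia and in other myeloid cells, so the line by itself is not specific to microglia. The paper left weeks between tamoxifen and toxin so that peripheral monocytes would be replaced. It reports that spleen cells were not ablated, and that similar myeloid cells were reduced in the small intestine. The libraries held poly(A) RNA of whole cortical tissue, and in such bulk samples fewer cells of a type and less RNA per cell cannot be told apart.

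The cell cycle runs through an ordered set of switches. D-type and E-type cyclins with their kinases release E2F factors in G1, which turn on the genes that copy DNA and make its building blocks. Cyclin A, cyclin B and Cdk1 then drive mitosis, in which Plk1, the Aurora kinases and the spindle checkpoint align the chromosomes before the anaphase-promoting complex (APC/C), a ubiquitin ligase, lets them separate. In the adult cortex most neurons no longer divide, and the cells known to divide are mainly oligodendrocyte precursors, repopulating microglia after a depletion, endothelial cells and infiltrating immune cells. Several of these genes have other roles in cells that do not divide, such as DNA repair for Pcna.

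The values were FPKM, fragments per kilobase of transcript scaled to the library total, which are corrected for transcript length, so levels can be compared between genes. Library depth, estimated from the spacing of low values, was about 14.6, 20.4 and 18.4 M fragments for the controls A1 to A3 and 13.7, 7.13 and 11.2 M for A4 to A6, so the depleted libraries were the shallower group. Cortical neuron markers were present in all mice, with a sum over 8 genes of 1669 to 1948 FPKM in control and 1731 to 1834 FPKM in depleted mice. The 8 microglia markers summed to 94.1 to 115 FPKM in control and 96.3 to 126 FPKM in depleted mice, and none of them was at 0. A3 and A4 stood apart: the X-linked Xist was at 4.74 FPKM in A3, far below the other mice, and Y-linked genes summed to 5.56 FPKM in A4 and to at most 0.16 FPKM elsewhere. A4 also had the highest sum of 10 interferon response genes, 395.99 FPKM against 71.6 and 67.6 FPKM in A5 and A6 and 21.5 to 33.4 FPKM in control mice. Values without A4 are given below for the genes whose difference they moved by more than 1.5 times.

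No cell cycle gene passed the test for a difference between the groups. Of the 35 genes, 25 averaged 0.5 FPKM or more across the mice and entered the limma test on log2(FPKM + 1), and 10 lay below that level. At an adjusted p under 0.1, limma called 0 of the 25, where it called 4 of all 14385 genes tested, 0.0278%, and the lowest adjusted p of a cell cycle gene was 0.376. At an unadjusted limma p under 0.05 there were 5 of 25 genes, or 20%, against 10.5% of all genes tested. Of these, Mcm6, Rrm2 and Birc5 were higher in depleted mice, 3 of 25 against 4.79% of all genes, and Ccne1 and Ube2c were lower, 2 of 25 against 5.74%. The groups did not overlap for 7 of the 25 genes, or 28%, against 17.6% of all genes tested. Pcna, Mcm6, Rrm2 and Birc5 lay above the controls in every depleted mouse, 4 of 25 against 8.21% of all genes, and Ccne1, Plk1 and Ube2c below, 3 of 25 against 9.38%.

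The 25 genes did not share a direction. The log2 fold change, depleted minus control, was above 0 for 15 genes and below 0 for 10, and ran from -0.58 for Ube2c to 0.70 for Mcm6. The median was 0.06, beside -0.01 over all genes tested. The fits without A4 and without A3 and A4 took in 26 cell cycle genes, since Gins2 passed the level there. Their medians were 0.02 and -0.03, so they are not over the same 25 genes. Set against the control mean, the 25 genes had medians of 0.07 (A4), -0.02 (A5) and 0.04 (A6). These medians were small beside the size of the single genes' log2 fold changes, whose median was 0.15 in absolute value. Most of the genes were low: the median level of the 35 was 0.917 FPKM, and fold changes on the log2(FPKM + 1) scale understate the change of such genes.

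**Figure D1:**
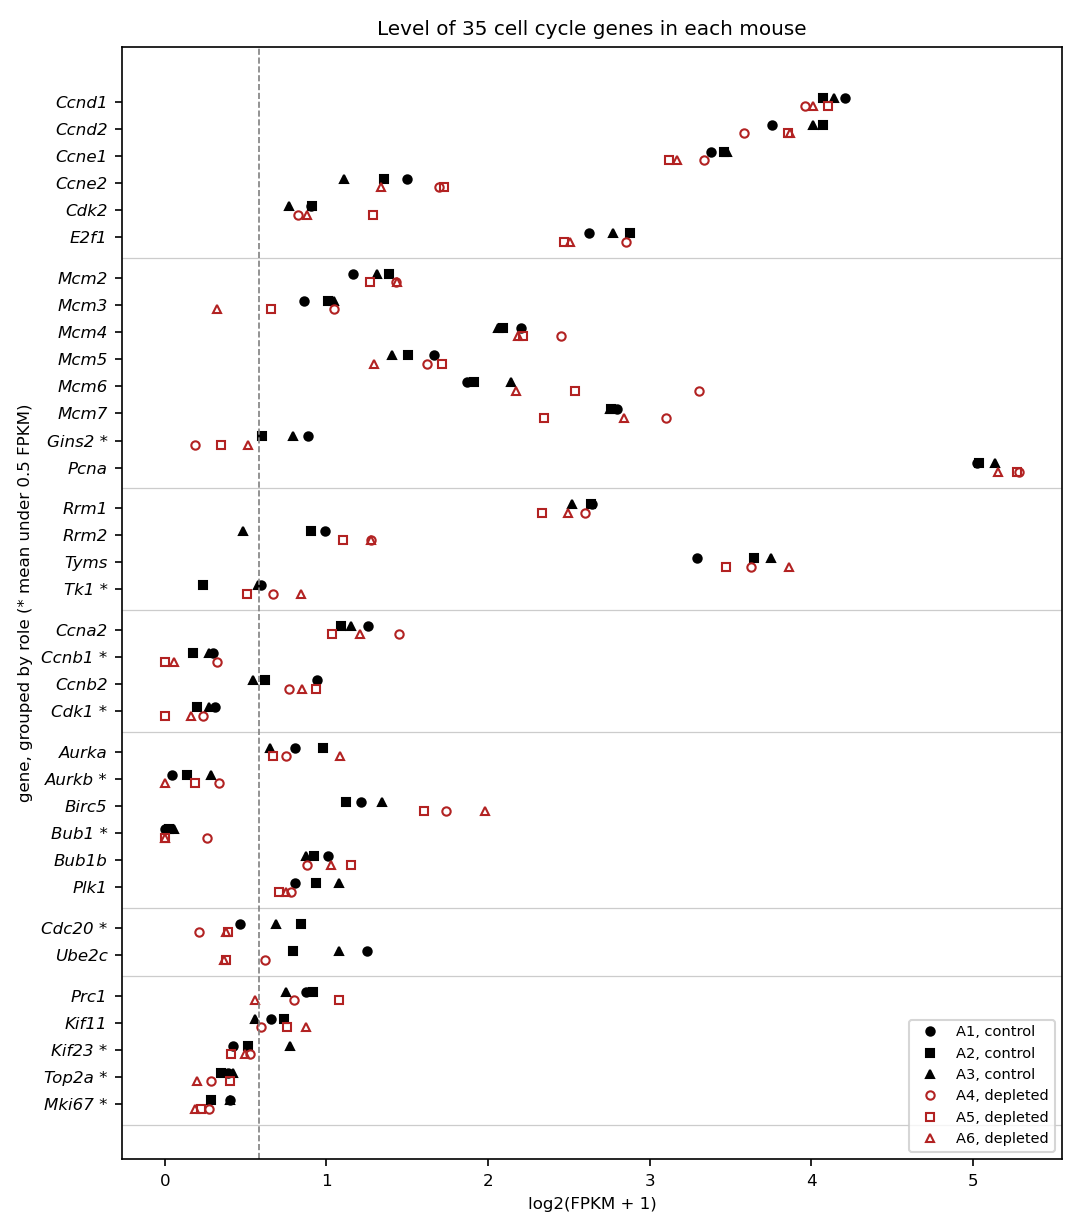
Level of the 35 cell cycle genes as log2(FPKM + 1) on the x axis, with the genes grouped by role on the y axis. Filled black marks are the 3 control mice, open red marks the 3 depleted mice, the dashed line stands at 0.5 FPKM and an asterisk marks the 10 genes with a mean below it. Pcna lies highest, and Mki67 and Top2a lie left of the line in every mouse.

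The G1 genes held some of the most abundant members, and their summed level was lower in every depleted mouse. Ccnd1, Ccnd2, Ccne1, Ccne2, Cdk2 and E2f1 together reached 47.3, 50.5 and 49.6 FPKM in control and 43.9, 45.6 and 43.8 FPKM in depleted mice. The sum is mostly that of Ccnd1, Ccnd2 and Ccne1. Other role groups had sums that were higher in every depleted mouse. The Mcm genes, Gins2 and Pcna were at 48.9, 48.6 and 51.4 FPKM in control and 64.0, 54.7 and 51.8 FPKM in depleted mice. Most of that sum was Pcna. The mitotic kinases, spindle checkpoint genes and Birc5 were at 3.86, 4.08 and 4.31 FPKM in control and 5.04, 4.62 and 5.79 FPKM in depleted mice. Birc5 was the largest part of that sum and the only gene of this group to be higher in every depleted mouse, while Plk1 was lower in every one. No test was made of these sums. Ccne1, which encodes cyclin E1, the partner of Cdk2 at entry into S phase, was at 9.40, 10 and 10.16 FPKM in control and 9.10, 7.69 and 8.01 FPKM in depleted mice. The groups did not overlap, but A4 lay close to A1. Its log2 fold change was -0.23 (SE 0.10, 95% interval -0.46 to -0.0003), with an unadjusted limma p of 0.0497 and an adjusted p of 0.475.

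The D-type cyclins answer to growth signals and activate Cdk4 and Cdk6. Ccnd1 was at 17.52, 15.83 and 16.61 FPKM in control and 14.59, 16.17 and 15.16 FPKM in depleted mice. Ccnd2 was at 12.52, 15.82 and 15.11 FPKM in control and 11.02, 13.49 and 13.61 FPKM in depleted mice. Both sets overlapped, and the log2 fold changes were -0.11 (SE 0.09, limma adjusted p = 0.660) for Ccnd1 and -0.18 (SE 0.12, limma adjusted p = 0.634) for Ccnd2, the latter -0.08 without A4. The other E-type cyclin did not follow Ccne1: Ccne2 was at 1.83, 1.56 and 1.16 FPKM in control and 2.24, 2.31 and 1.53 FPKM in depleted mice, and its log2 fold change was 0.26 (SE 0.17, limma adjusted p = 0.612). Ccne2 shares 17.4% of its exonic bases with Ints8 on the opposite strand, which was at 7.56 to 8.64 FPKM in control and 8.94 to 10.52 FPKM in depleted mice. Whether reads were counted by strand is not given in the sources used here. Cdk2 and E2f1, the kinase and the transcription factor of the G1 to S switch, had log2 fold changes of 0.14 and -0.15 with overlapping groups, and 0.22 and -0.27 without A4.

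The MCM proteins form the ring-shaped helicase that unwinds DNA at the replication fork. Of its 6 subunits, Mcm6 alone had groups that did not overlap, although the subunits act as 1 complex. Mcm6 was at 2.66, 2.77 and 3.41 FPKM in control and 8.89, 4.81 and 3.51 FPKM in depleted mice. A4 was far above the rest, and A6 was just above the highest control. The log2 fold change was 0.70 (SE 0.26, 95% interval 0.10 to 1.29), with an unadjusted limma p of 0.0267 and an adjusted p of 0.426, and it was 0.38 without A4. The part of the A4 library in this difference was not tested beyond that value.

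The other subunits stayed close to the control level or varied within the depleted group. Mcm4 was at 3.18 to 3.60 FPKM in control and 3.55 to 4.46 FPKM in depleted mice, with a difference of 0.17 on the log2 scale that was 0.08 without A4. Mcm2 and Mcm5 had log2 fold changes of 0.09 and 0.02, with overlapping groups, and that of Mcm5 was -0.02 without A4. Mcm7 spread widely in the depleted mice, with 7.59, 4.08 and 6.17 FPKM against 5.74 to 5.95 FPKM in control mice, and its log2 fold change was -0.01 with all mice and -0.18 without A4. Mcm3 went the other way in A5 and A6, with 0.58 and 0.25 FPKM against 0.82 to 1.07 FPKM in control mice, while A4 was at 1.07 FPKM. Its log2 fold change was -0.30 (SE 0.21, unadjusted limma p of 0.189 and adjusted p of 0.637), and without A4 it was -0.48, with an unadjusted limma p of 0.0283.

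E2F factors bind sites upstream of many replication genes, so promoter sequences of 2 helicase subunits with such letters and unlike values are shown. They are the 250 bases before the RefSeq start in GRCm38.p6, written 5′ to 3′ on the strand of the gene, for Mcm6 at chr1:128359706-128359955 on the minus strand and for Mcm5 at chr8:75109259-75109508 on the plus strand. Capitals mark matches to TTTCGCGC or TTTGGCGC on either strand, where overlapping matches run together.
Mcm6: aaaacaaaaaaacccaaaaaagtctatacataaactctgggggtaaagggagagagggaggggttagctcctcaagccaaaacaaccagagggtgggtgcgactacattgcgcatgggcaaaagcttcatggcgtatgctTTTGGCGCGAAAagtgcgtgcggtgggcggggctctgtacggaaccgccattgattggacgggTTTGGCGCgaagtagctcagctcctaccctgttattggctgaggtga
Mcm5: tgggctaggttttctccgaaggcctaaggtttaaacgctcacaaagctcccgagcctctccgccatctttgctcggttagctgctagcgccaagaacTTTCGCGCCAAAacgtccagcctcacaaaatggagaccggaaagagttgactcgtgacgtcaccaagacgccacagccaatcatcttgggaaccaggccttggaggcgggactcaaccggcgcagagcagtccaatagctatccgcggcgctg
The letters were counted in whole RefSeq windows, from 250 bases before the start to 50 bases after it, which matched 28 of the 35 genes. They stood in the windows of 5 genes, against 0.813% of all 32851 windows: before the start in Cdk1, Mcm5 and Mcm6, and after it in Mcm3 and Mcm7. For the 4 of these genes that were tested the median log2 fold change was 0.01, with 2 above 0, and the 16 tested genes with a window without the letters had a median of 0.09. A match of letters is a description of the sequence and not a measured binding site.

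Pcna encodes the sliding clamp that holds DNA polymerase on its template, and it was the most abundant of the 35 genes. It was at 31.65, 31.84 and 34.16 FPKM in control and 38.07, 37.66 and 34.71 FPKM in depleted mice. Every depleted mouse was above every control, with A6 close to A3. The log2 fold change was 0.17 (SE 0.08, 95% interval -0.003 to 0.35), with a limma adjusted p of 0.479. Pcna shares 13.8% of its 75-base windows with the pseudogene Pcna-ps2, which is not among the deposited genes. Whether reads of the pseudogene were counted for Pcna was not tested. Gins2, a subunit of the GINS complex that joins the MCM ring to the active helicase, was under the test level at 0.85, 0.52 and 0.73 FPKM in control and 0.14, 0.27 and 0.43 FPKM in depleted mice. Its groups did not overlap, but 67.3% of its exonic bases overlap Gse1 on the opposite strand, which stood at 10.4 to 11.1 FPKM in control and 10.6 to 14.2 FPKM in depleted mice. The part of Gse1 reads in the Gins2 values was not tested.

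Deoxynucleotide synthesis supplies the building blocks of DNA. Ribonucleotide reductase has a large subunit encoded by Rrm1 and a small one encoded by Rrm2, and Rrm2 is the subunit whose level follows S phase. Rrm2 was at 0.99, 0.87 and 0.40 FPKM in control and 1.42, 1.15 and 1.42 FPKM in depleted mice. The groups did not overlap, and A3 was the lowest mouse by a wide margin. The log2 fold change was 0.42 (SE 0.18, 95% interval 0.01 to 0.83), with an unadjusted limma p of 0.0441 and an adjusted p of 0.464, and it was 0.27 without A3. Rrm1 was at 4.73 to 5.26 FPKM in control and 4.05 to 5.07 FPKM in depleted mice, and its log2 fold change was -0.12, or -0.19 without A4. Tyms, thymidylate synthase, was at 8.81 to 12.44 FPKM in control and 10.08 to 13.53 FPKM in depleted mice, and its log2 fold change was 0.09. Tk1, thymidine kinase, was below the test level, at 0.18 to 0.51 FPKM in control and 0.42 to 0.79 FPKM in depleted mice.

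The cyclins of S phase and mitosis and their kinase were low in both groups. Ccna2 was at 1.13 to 1.39 FPKM in control and 1.05 to 1.73 FPKM in depleted mice, and its log2 fold change was 0.06 with all mice and -0.04 without A4. Ccnb2 was at 0.92, 0.54 and 0.46 FPKM in control and 0.70, 0.91 and 0.80 FPKM in depleted mice, and the groups overlapped, with a log2 fold change of 0.15 (SE 0.17, limma adjusted p = 0.787). Ccnb1 and Cdk1, which together form the kinase that starts mitosis, were close to 0 in all mice. Ccnb1 was at 0.23, 0.13 and 0.21 FPKM in control and 0.25, 0 and 0.04 FPKM in depleted mice. Cdk1 was at 0.24, 0.15 and 0.21 FPKM in control and 0.18, 0 and 0.12 FPKM in depleted mice. Both genes were listed at 0 in A5, the shallowest library.

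**Figure D2:**
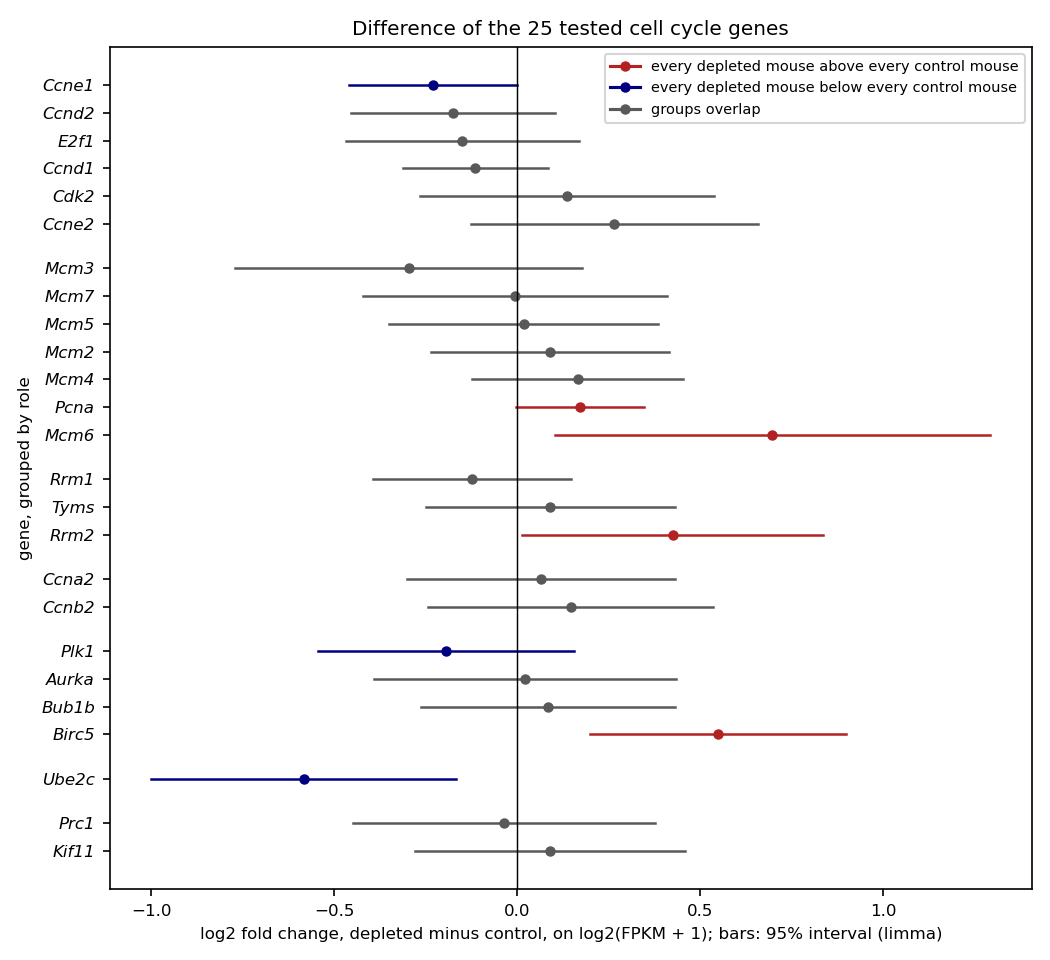
Log2 fold change on log2(FPKM + 1), depleted minus control, for the 25 cell cycle genes tested, with 95% intervals from limma (3 mice per group) and genes grouped by role. Red marks genes whose depleted mice all lay above the controls, blue those whose depleted mice all lay below, and grey those whose groups overlapped. The points run from -0.58 for Ube2c to 0.70 for Mcm6.

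Among the mitotic kinases and their partners, Birc5 had the lowest p of the 25 genes tested. Birc5 encodes survivin, which guides Aurora B to the chromosomes and is also an inhibitor of apoptosis. It was at 1.32, 1.18 and 1.54 FPKM in control and 2.34, 2.04 and 2.95 FPKM in depleted mice. The groups were well apart, with each depleted mouse above the highest control by more than the control range. The log2 fold change was 0.55 (SE 0.15, 95% interval 0.20 to 0.90), with an unadjusted limma p of 0.00658 and an adjusted p of 0.376, and it was 0.57 without A4. Its partner in the complex did not share this pattern: Aurkb was near 0, at 0.03, 0.10 and 0.22 FPKM in control and 0.26, 0.14 and 0 FPKM in depleted mice.

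Plk1 encodes the polo-like kinase of mitotic entry and spindle assembly. It was at 0.75, 0.91 and 1.11 FPKM in control and 0.72, 0.63 and 0.68 FPKM in depleted mice. The groups did not overlap, but A4 was next to A1, and the difference was within the spread that limma allows, with a log2 fold change of -0.19 (SE 0.15, adjusted p = 0.675). Aurka, the Aurora kinase of the spindle poles, was at 0.57 to 0.97 FPKM in control and 0.59 to 1.12 FPKM in depleted mice, and its log2 fold change of 0.02 was 0.06 without A4. Bub1b, a spindle checkpoint kinase, was at 0.83 to 1.01 FPKM in control and 0.84 to 1.22 FPKM in depleted mice, and its log2 fold change of 0.08 was 0.15 without A4. Bub1, its relative at the kinetochore, was at 0, 0.02 and 0.04 FPKM in control and 0.20, 0 and 0 FPKM in depleted mice. At this depth no difference in Bub1 was detectable, with about 3.91 fragments over the 3 control mice and 9.39 over the 3 depleted mice, all of the latter in A4.

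Both genes of the APC/C group lay lower in every depleted mouse. Ube2c was among the genes tested, of which 9.38% did so. Cdc20 was among those under the test level and above 0 in a mouse, of which 4.44% did so. The latter include genes at 0 in control mice, which cannot lie lower, so that share is not a like background. Ube2c encodes the ubiquitin-conjugating enzyme that works with the APC/C, and Cdc20 encodes an activator that brings it its targets at anaphase. Ube2c was at 1.38, 0.73 and 1.11 FPKM in control and 0.54, 0.30 and 0.29 FPKM in depleted mice. Every depleted mouse was below every control, and the controls themselves spread widely. The log2 fold change was -0.58 (SE 0.18, 95% interval -0.999 to -0.17), with an unadjusted limma p of 0.0116 and an adjusted p of 0.378, and it was -0.67 without A4. On a scale that adds 0.1 FPKM in place of 1 FPKM the difference was -1.30, since Ube2c is low. Tnnc2 overlaps 22.8% of the exonic bases of Ube2c on the opposite strand and was itself at 0 to 0.08 FPKM in control animals and reached 1.02 FPKM in A6, with 0.10 FPKM in A4 and 0 in A5.

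Cdc20 was under the test level, at 0.38, 0.79 and 0.61 FPKM in control and 0.16, 0.31 and 0.30 FPKM in depleted mice. Its groups did not overlap, and about 59.0 fragments over the 3 control libraries stood against 13.9 over the 3 shallower depleted libraries. In a limma fit with no filter on low values, its log2 fold change was -0.34 with an unadjusted p of 0.0228 and an adjusted p of 0.478. The summed level of Ube2c and Cdc20 was 1.76, 1.52 and 1.72 FPKM in control and 0.70, 0.61 and 0.59 FPKM in depleted mice, with no test made of this sum.

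Genes that peak in mitosis often carry a CHR element, TTTGAA, near their start, and the promoters of both APC/C genes are shown for it. They are the 250 bases before the RefSeq start in GRCm38.p6, 5′ to 3′ on the strand of the gene, for Ube2c at chr2:164769679-164769928 on the plus strand and for Cdc20 at chr4:118437344-118437593 on the minus strand. Capitals mark TTTGAA on either strand, which reads TTCAAA in Ube2c.
Ube2c: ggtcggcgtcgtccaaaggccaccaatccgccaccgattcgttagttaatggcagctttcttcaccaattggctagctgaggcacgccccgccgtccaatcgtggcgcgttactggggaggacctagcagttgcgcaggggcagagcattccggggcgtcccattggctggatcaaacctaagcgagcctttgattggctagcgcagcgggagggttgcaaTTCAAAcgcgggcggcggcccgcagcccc
Cdc20: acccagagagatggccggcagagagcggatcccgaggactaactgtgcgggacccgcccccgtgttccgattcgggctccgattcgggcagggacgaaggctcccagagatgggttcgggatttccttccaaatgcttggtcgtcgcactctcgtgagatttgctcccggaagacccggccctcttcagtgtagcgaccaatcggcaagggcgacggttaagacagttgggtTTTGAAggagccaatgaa
In the whole windows to 50 bases after the start, the letters stood in 13 of the 28 genes matched, against 17.9% of all windows, in Bub1b, Aurka, Plk1 and Kif23 after the start only, and CCAAT, which often stands beside a CHR, in those of 23 genes, against 37.4%. For the 8 tested genes with TTTGAA the median log2 fold change was 0.05, as did the 12 tested genes with a window without it, at 0.05. Plk1, Aurka, Bub1b, Ccnb2, Kif11 and Prc1 carried the letters too and had no shared direction.

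**Figure D3:**
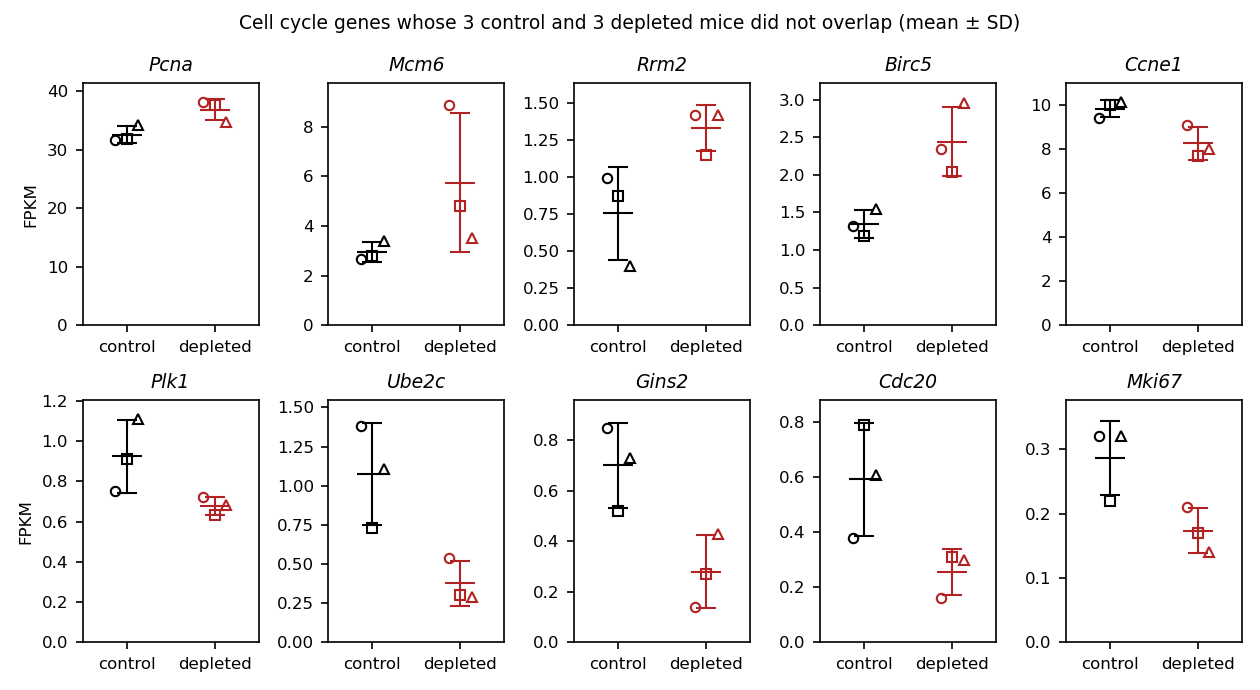
FPKM per mouse for the 10 cell cycle genes whose control and depleted mice did not overlap, 7 tested genes and Gins2, Cdc20 and Mki67 from below the test level. Circles, squares and triangles are A1, A2 and A3 in the control group and A4, A5 and A6 in the depleted group, with a bar at the mean and whiskers of 1 SD (3 mice per group). Pcna, Mcm6, Rrm2 and Birc5 are higher and the other 6 genes lower in every depleted mouse, and the highest point of Mcm6 is A4.

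Mki67 and Top2a, both often used to mark dividing cells, were near 0 FPKM, whereas Pcna, also used so, was the most abundant gene of the list. The paper stained for PCNA protein and reports dividing microglia only at a day earlier than d10. The values here are RNA of whole cortex at d10. Mki67, the gene of the Ki-67 antigen, was at 0.32, 0.22 and 0.32 FPKM in control and 0.21, 0.17 and 0.14 FPKM in depleted mice. Its groups did not overlap, A4 and A2 were 0.01 FPKM apart, and the log2 fold change with no filter was -0.13, with an unadjusted limma p of 0.0935. Its transcript is long, so these levels still rest on about 47.1, 45.3 and 59.2 fragments in A1, A2 and A3 and 29.0, 12.2 and 15.8 in A4, A5 and A6. Top2a, the topoisomerase that untangles chromosomes before mitosis, was at 0.31, 0.27 and 0.34 FPKM in control and 0.22, 0.32 and 0.15 FPKM in depleted mice. The groups of Top2a overlapped, because A5 was as high as the controls.

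The spindle and cytokinesis genes showed no difference beyond the spread of the mice. Kif11, the motor that pushes the spindle poles apart, was at 0.58, 0.67 and 0.47 FPKM in control and 0.51, 0.69 and 0.83 FPKM in depleted mice, and its log2 fold change was 0.09 (SE 0.16, limma adjusted p = 0.871), or 0.16 without A4. Prc1, which bundles the microtubules of the midzone, was at 0.68 to 0.89 FPKM in control and 0.47 to 1.11 FPKM in depleted mice. It shares 11.1% of its exonic bases with Rccd1 on the opposite strand, at 2.33 to 2.52 FPKM in control and 3.34 to 3.76 FPKM in depleted mice. The part of Rccd1 reads in the Prc1 values was not tested. Kif23, the motor that acts with Prc1 in cytokinesis, was at 0.34 to 0.71 FPKM in control and 0.33 to 0.44 FPKM in depleted mice.

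Seen as a set, the 10 genes under the test level were Gins2, Tk1, Ccnb1, Cdk1, Aurkb, Bub1, Cdc20, Kif23, Top2a and Mki67. In the fit with no filter, 7 of the 10 had log2 fold changes below 0 and 3 above 0, with a median of -0.11 beside 0.00 over the 4530 genes that were under the same level and above 0 in a mouse. Gins2, Cdc20 and Mki67 were lower in every depleted mouse, 3 of 10 genes, where 4.44% of the 4530 genes were. None of the 10 was higher in every depleted mouse, against 2.69%. The 4530 genes include genes at 0 in control mice, which cannot be lower without overlap, while 6 of the 10 were above 0 in all mice. The 4.44% is therefore not a like background for the 10. At an unadjusted limma p under 0.05 with no filter there were 2 genes, Gins2 and Cdc20, both lower, against 2.98% of the 4530 genes that were lower, 4.9% of them in either direction and 9.28% of all genes in that fit. Gins2 had a log2 fold change of -0.41 with an unadjusted p of 0.0109 in this fit. Of the 30 values of these genes in depleted mice 5 were listed at 0, and of the 30 in control mice 1 was. The depleted libraries were also the shallower ones, and the part of depth in these zeros was not tested. No gene of the 35 was above 0 in only 1 of the groups.

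Other genes of the same pathways, from lists that leave out the 35, also held no called gene. CDK inhibitors brake the G1 kinases, and 5 of 8 were tested, with 3 above 0 and 2 below and a median log2 fold change of 0.21, which was -0.0027 with no filter on low values. Cdkn1a, the p21 inhibitor that p53 induces, was at 10.94 to 13.04 FPKM in control mice, at 44.57 FPKM in A4 and close to the controls in A5 and A6, at 14.17 and 11.86 FPKM. A single mouse carried this difference: the log2 fold change was 0.71 (SE 0.41, limma adjusted p = 0.570) and 0.14 without A4. Cdkn2c was at 1.41, 1.85 and 2.35 FPKM in control and 0.59, 0.76 and 1.44 FPKM in depleted mice, and its log2 fold change was -0.58 (SE 0.21, limma adjusted p = 0.409). Cdkn1b had a log2 fold change of -0.23 and Cdkn2d one of 0.21. The groups of these 2 inhibitors did not overlap, 40% of the 5 tested against 17.6% of all genes tested. Cdkn1b, Cdkn2c and Cdkn2d had unadjusted limma p-values of 0.0493, 0.0215 and 0.0437. They were 3 of 5 genes, or 60%, against 10.5% of all genes tested, with 1 higher and 2 lower. Cdkn1c had a log2 fold change of 0.27, with overlapping groups, or 0.16 without A4. Under the test level, Cdkn3, a phosphatase that acts on CDKs, was at 0.79, 0.57 and 0.84 FPKM in control and 0.09, 0 and 0 FPKM in depleted mice. Its groups were well apart, with a log2 difference of -0.75 in the limma fit with no filter (unadjusted p of 7.1e-05 and adjusted p of 0.224). Cdkn3 was singled out after its values were seen.

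Other G1 regulators, 13 of 18 tested, had 5 log2 fold changes above 0 and 8 below, with a median of -0.03. Cdk4, the kinase of the D-type cyclins, was at 27.2 to 29.5 FPKM in control and 21.1, 26.3 and 23.9 FPKM in depleted mice, and its log2 fold change was -0.24 (unadjusted limma p of 0.0369 and adjusted p of 0.451), or -0.16 without A4. Skp2, which marks p27 for destruction, had a log2 fold change of -0.31, and Cdc25a, the phosphatase that activates Cdk2, one of 0.24. Neither gene had overlapping groups, and in the whole list 3 genes had none, 23.1% of the 13 tested against 17.6% of all genes tested. Rbl2, a relative of the retinoblastoma protein, came next at 0.05.

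Other replication genes lay more often above 0 than below. Of 40 genes 34 were tested, 20 above and 14 below 0, with a median log2 fold change of 0.05. The groups did not overlap for 7 genes, or 20.6% of the list against 17.6% of all genes tested. By direction these were 6 higher genes, 17.6% against 8.21%, and 1 lower gene, 2.94% against 9.38%. At an unadjusted limma p under 0.05 there were 4 genes, or 11.8% against 10.5% of all genes tested, and all 4 were higher, where 4.79% of all genes were. They were Pola2 (log2 fold change 0.47) and Prim1 (0.35), subunits of the polymerase that primes DNA synthesis, and Rfc3 (0.44) and Rfc4 (0.31), subunits of the complex that loads Pcna. Their limma adjusted p-values ran from 0.380 to 0.453. Cdc7, the kinase that fires origins, had the lowest log2 fold change, -0.29, and it was -0.04 without A4. Rpa3, a subunit of the complex that coats single-stranded DNA, had one of -0.24, or -0.42 without A4.

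Other mitotic genes, 27 of 50 tested, were split, with 12 above and 15 below 0 and a median log2 fold change of -0.02. Smc4, a core subunit of condensin, which compacts chromosomes, was at 1.59, 1.54 and 2.12 FPKM in control and 3.42, 2.67 and 3.36 FPKM in depleted mice. The groups did not overlap, and the log2 fold change was 0.59 (SE 0.15, unadjusted limma p of 0.00346 and adjusted p of 0.370). Nuf2, a kinetochore protein that holds microtubules, was at 1.04, 1.09 and 1.24 FPKM in control and 0.75, 0.58 and 0.40 FPKM in depleted mice. Its groups did not overlap either, and the log2 fold change was -0.43 (SE 0.16, unadjusted limma p of 0.0241 and adjusted p of 0.415). Cks2 and Cks1b, small partners of Cdk1, had log2 fold changes of 0.30 and -0.34, and A4 was above the rest in both. Without A4 the values were 0.01 for Cks2 and -0.88 for Cks1b.

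The p53 target genes and the histone genes held no called gene either. Of 16 p53 targets, all tested, 10 were above 0 and 6 below, and their median log2 fold change of 0.05 became -0.01 without A4. Beside Cdkn1a, Pmaip1 had the highest value, 0.40, and it was 0.12 without A4. Gadd45a was at 5.62 to 6.62 FPKM in control and 6.98 to 8.32 FPKM in depleted mice, and its log2 fold change was 0.31 (unadjusted limma p of 0.0253 and adjusted p of 0.418). Phlda3 was at 20.1 to 23.2 FPKM in control and 16.8 to 18.4 FPKM in depleted mice, and its log2 fold change was -0.30 (unadjusted limma p of 0.00941 and adjusted p of 0.378). Trp53inp1, a p53 cofactor, had the next lowest value, -0.17. Of 12 histone genes 5 were tested, and their median log2 fold change was 0.11 with all mice. Without A4 only Hist1h4i, H2afx and H2afz passed the level, and the median was -0.26, the value of H2afx. These 2 medians are therefore not over the same genes. Hist1h2ab was above 0 in A4 only, at 3.17 FPKM, and Hist1h4i was at 12.7 FPKM in A4 and at 0 to 2.60 FPKM in the other mice. H2afx and H2afz, which unlike most histone genes can yield poly(A) RNA, had log2 fold changes of -0.25 and -0.14. Their groups did not overlap, 40% of the 5 tested against 17.6% of all genes tested. Most histone RNA has no poly(A) tail, and poly(A) selection leaves it out.

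**Figure D4:**
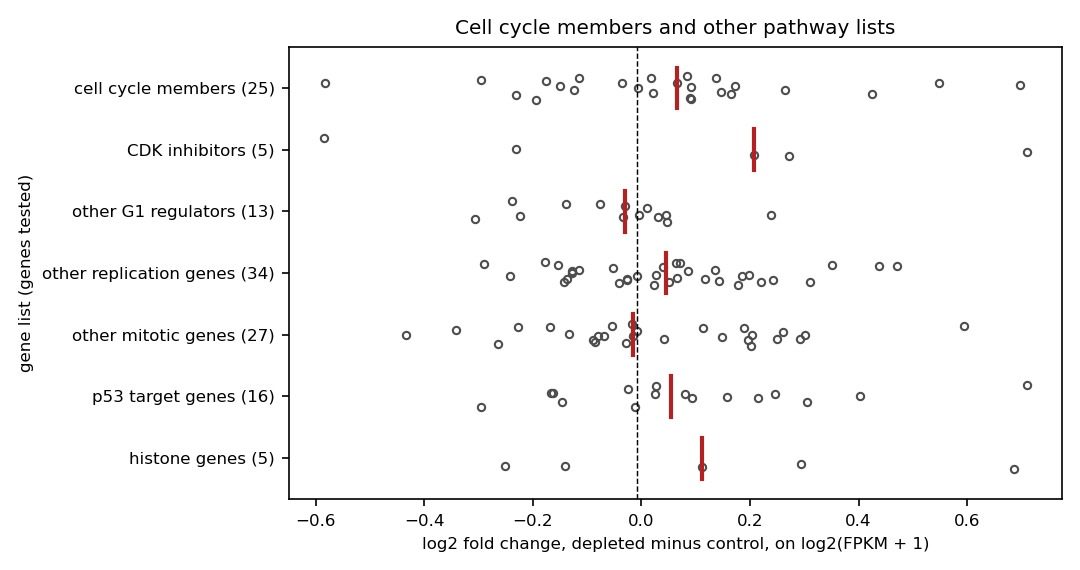
Log2 fold change on log2(FPKM + 1), depleted minus control, of every tested gene of the cell cycle list and of the other lists of the same pathways, with 1 point per gene and a red bar at the median of each list. The dashed line is the median of all 14385 genes tested, -0.01. The medians lie between -0.03 for the other G1 regulators and 0.21 for the CDK inhibitors.

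Markers of cell types that can divide differed in more than 1 direction beside these results. The 7 markers of oligodendrocyte precursors summed to 98.9 to 112 FPKM in control and 72.6 to 90.4 FPKM in depleted mice, with all 7 log2 fold changes below 0 and none called, and 4 were lower without overlap, where 9.38% of all genes tested were. The largest part of this sum was Olig1, at 50.2 to 60.3 FPKM in control and 31.9 to 47.4 FPKM in depleted mice. Whether these RNAs came from dividing precursors or from other oligodendrocyte cells was not tested. The 6 endothelial markers summed to 13.7 to 15.7 FPKM in control and 17.2 to 19.7 FPKM in depleted mice, with 4 of 6 above 0 and none called. Only Cldn5 had groups that did not overlap, 1 of 6 or 16.7%, against 17.6% of all genes tested. The 8 microglia markers had 4 above and 4 below 0, and their sums overlapped between the groups. Monocyte markers summed to 0.67 to 1.02 FPKM in control mice, 4.21 FPKM in A4, and 0.83 and 0.98 FPKM in A5 and A6. The 8 T cell markers in the table summed to 3.21 to 4.59 FPKM in control and 2.76 to 4.15 FPKM in depleted mice, with Gzmb at 0 in all mice. Markers of neuroblasts and the neurogenic niche summed to 225 to 238 FPKM in control mice, 165 FPKM in A4 and 237 and 220 FPKM in A5 and A6. Most of this sum was Tubb3, a general neuronal gene, and without it the other 10 markers summed to 32.2 to 34.1 FPKM in control mice and to 29.9, 37.1 and 33.1 FPKM in A4, A5 and A6. The 6 ependymal markers summed to 16.2 to 22.4 FPKM in control and 16.2 to 19.3 FPKM in depleted mice.

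Choroid plexus and mature oligodendrocytes had lower marker sums in every depleted mouse. The 6 choroid plexus markers summed to 181, 323 and 167 FPKM in control and 69.6, 45.0 and 64.3 FPKM in depleted mice, with 5 of 5 tested below 0. Nearly all of this sum was Ttr, at 172.74, 313.68 and 160.05 FPKM in control and 64.30, 40.92 and 59.89 FPKM in depleted mice. Of the 5 tested markers 2 were lower without overlap, 40% against 9.38% of all genes tested. The 6 markers of mature oligodendrocytes summed to 2880 to 3130 FPKM in control and 2521 to 2590 FPKM in depleted mice. The sums of the 7 astrocyte markers overlapped, at 842 to 967 FPKM in control and 856 to 1042 FPKM in depleted mice, and most of this sum was Aldoc. The groups of 3 markers did not overlap, 42.9% against 17.6% of all genes tested. Gfap was higher, at 88.28, 64.48 and 84.21 FPKM in control and 300.31, 108.51 and 120.13 FPKM in depleted mice. Its log2 fold change was 1.00 (limma adjusted p = 0.396), or 0.54 without A4. Aldoc and Gja1 were lower, each with a log2 fold change of -0.19. The part of these cell types in the values of the cell cycle genes was not tested.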

How the data were processed

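Cortical RNA of 3 control and 3 microglia-depleted mice was analysed, grouped by the labels. According to the methods, the authors made poly(A) libraries, mapped read pairs by TopHat, estimated gene levels by RSEM and deposited FPKM values scaled by TMM. The submitters' processing notes name the build mm9 and DESeq. Tool versions, the annotation and the strand setting are not given in the sources used here. The table holds no counts, so a count test was not run.

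FPKM were taken to log2(FPKM + 1), a log2 scale on which the deposited values were then compared. The 14385 of 23366 genes that averaged 0.5 FPKM or more were fitted with limma 3.58.1 in R 4.3.3 (eBayes with trend, Benjamini-Hochberg over all genes tested, threshold 0.1 as in the study, no covariate), and 4451 genes were at 0 in every mouse. Nothing states more than 1 library per mouse, and p-values measure the spread between these mice. An exact permutation test of 3 against 3 mice cannot give a p below 0.1 and was not used. The number of fragments was estimated from the spacing of low FPKM values in 1813 genes with a single transcript, and fragments per gene follow from it and the longest transcript, so both are approximate and counting error is not the whole error. Scripts were tested on simulated data.

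Overlaps and shared 75-base windows were taken, by gene symbol, from GENCODE M21 (GRCm38), and promoters from RefSeq. Their coordinates are those of these annotations and not of the deposited values. The members and lists were chosen with earlier results of these data known. Values per mouse were given for tested members with an unadjusted p under 0.05 or groups without overlap, the largest change of each role group, the 3 most abundant members and those near 0. Of each pathway list, the 2 highest and 2 lowest genes and those with an unadjusted p under 0.05 were named, some by their fold change alone, and Cdkn3 was added. Members beyond this rule are given by range or by fold change. The 17 alternatives were other pseudocounts, filters, scalings, variance models and a threshold of 0.05, and leaving out each mouse, or A3 and A4 together. The remaining steps and the plots used Python 3.11.15 with numpy 2.4.6, pandas 2.3.3 and matplotlib 3.10.9.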

Additional observations from a re-analysis of the deposited data

How the results depend on the processing

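None of the 25 cell cycle genes, and no gene of the pathway lists, passed the adjusted threshold under any of the 17 alternatives. The sign of the log2 fold change held under all of them for 18 of the 25 genes, among them the 7 whose groups did not overlap, and changed under 1 or more for Cdk2, Mcm5, Mcm7, Tyms, Ccna2, Aurka and Prc1, all at 0.137 or less in absolute value with all mice. The number called among all genes was 2 with eBayes without trend, 20 with array weights, 7 without A3 and A4, and 2 to 29 when each mouse was left out in turn, from 2 without A1 to 22 without A4 and 29 without A5. The median log2 fold change of the cell cycle genes was 0.018 with no filter and -0.034 without A3 and A4, and 0.021 to 0.083 with each mouse left out. The genes behind these medians changed, with 35 under no filter, 26 without A3 and A4, and 25 to 27 with each mouse left out. Cell cycle genes whose groups did not overlap numbered 13 without A3 and A4, when 40.6% of all genes did so, and 8 to 13 with each mouse left out, when 23.6% to 32.7% of all genes did so, since fewer mice overlap less often. The median of the CDK inhibitors was -0.0027 with no filter, that of the other G1 regulators 0.0042 without A3 and A4, and that of the other mitotic genes -0.053 to 0.056 with each mouse left out. No scaling moved the median of all genes by over 0.1. No paired analysis was possible because the groups share no replicate numbers. Most of these genes are low, the depleted libraries are shallower, the FPKM were rounded to 2 decimals, and 3 mice a group leave wide intervals, so a missing call does not show that a gene did not differ.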
